A study of Mus musculus with 24 samples.

Results

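A set of 10 genes linked to the vascular endothelium, the cell layer that lines blood vessels, was followed in mouse thoracic aorta: Pecam1, Cdh5, Kdr, Tek, Tie1, Eng, Acvrl1, Klf2, Smad6 and Id1. They were taken by symbol from the deposited count table, which holds 25941 genes, and each of the 10 symbols matched 1 row. All 10 were among the 14451 genes that passed the filter on low counts. Acvrl1 was chosen by its difference in level between celecoxib and rofecoxib in these same libraries, so its values are given as a description, with no test of its differences. The other 9 genes were named for their roles in endothelial identity and in signalling through ALK1, the receptor that Acvrl1 encodes.

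The libraries came from male wild-type C57BL/6 adults aged 10 to 12 weeks, with tissue collected at zeitgeber time 11 (hours from lights on). The control group ate regular chow with no drug, the celecoxib group ate chow dosed at 100 mg/kg/day and the rofecoxib group chow dosed at 50 mg/kg/day, each for 3 weeks, with 8 libraries per group. Both drugs are selective inhibitors of the inducible cyclooxygenase. Their rings differ, a pyrazole with a sulfonamide in celecoxib and a furanone with a methylsulfone in rofecoxib, and so did their doses. The labels do not tie libraries to animals, so p-values measure the spread between these libraries. No source used here explains the number that each title also carries. The question was which of these genes differ in whole aorta between the diets. Each drug was set against the same 8 controls and the drugs against each other.

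As background, endothelial cells are recognised by junction and surface proteins such as PECAM1 and VE-cadherin, and by receptors for vascular growth factors. ALK1 is a receptor of the BMP family found mainly on endothelium; with its co-receptor endoglin it binds BMP9 and BMP10 from the blood and activates SMAD transcription factors, which switch on Id genes and the inhibitory SMADs that damp the signal. Loss of ALK1 or endoglin causes hereditary haemorrhagic telangiectasia, a disease of malformed vessels. Klf2 encodes a transcription factor that blood flow induces in endothelium.

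Promoter sequences show what the regulatory ends of these genes hold. RefSeq windows on GRCm38.p6, from 250 bases before to 50 bases after the transcript start, were at hand for 6 of the 10 genes: Eng, Tek, Tie1, Kdr, Klf2 and Smad6. That build is not the one of the deposited counts, which is mm9. The motifs searched on both strands were AGGAAG and CGGAAG, which carry the core bound by ETS factors of endothelial genes, GGCGCC, a sequence bound by SMAD1 and SMAD5, and the palindrome GTCTAGAC, bound by SMAD proteins. GTCTAGAC was added after it had been seen in the Smad6 window. The first 2 motifs share 5 letters, and a site can match only 1 of them. The 4 receptor promoters are shown because they bear on endothelial identity, in which ETS factors act, and the Smad6 promoter because Smad6 is a BMP target; capitals mark the matches. Tie1 lies at chr4:118489800-118490099 on the minus strand, Eng at chr2:32646345-32646644 on the plus strand, Tek at chr4:94739039-94739338 on the plus strand, Kdr at chr5:75978406-75978705 on the minus strand and Smad6 at chr9:64022010-64022309 on the minus strand.
Tie1: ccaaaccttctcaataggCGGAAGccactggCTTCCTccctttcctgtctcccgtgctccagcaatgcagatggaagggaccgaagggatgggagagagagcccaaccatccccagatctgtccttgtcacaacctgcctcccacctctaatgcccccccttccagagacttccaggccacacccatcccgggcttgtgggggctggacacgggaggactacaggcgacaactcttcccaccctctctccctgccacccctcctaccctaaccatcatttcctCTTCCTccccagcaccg
Eng: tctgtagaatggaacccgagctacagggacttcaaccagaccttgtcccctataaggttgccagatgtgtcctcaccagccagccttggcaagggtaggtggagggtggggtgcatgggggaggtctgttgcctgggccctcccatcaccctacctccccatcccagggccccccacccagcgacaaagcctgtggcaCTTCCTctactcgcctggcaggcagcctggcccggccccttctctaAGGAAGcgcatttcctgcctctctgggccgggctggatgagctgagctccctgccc
Tek: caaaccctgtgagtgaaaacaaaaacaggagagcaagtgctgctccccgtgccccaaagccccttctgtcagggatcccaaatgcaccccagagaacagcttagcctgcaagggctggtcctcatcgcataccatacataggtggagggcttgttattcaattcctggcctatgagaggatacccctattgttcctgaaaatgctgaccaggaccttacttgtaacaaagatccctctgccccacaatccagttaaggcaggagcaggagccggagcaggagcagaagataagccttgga
Kdr: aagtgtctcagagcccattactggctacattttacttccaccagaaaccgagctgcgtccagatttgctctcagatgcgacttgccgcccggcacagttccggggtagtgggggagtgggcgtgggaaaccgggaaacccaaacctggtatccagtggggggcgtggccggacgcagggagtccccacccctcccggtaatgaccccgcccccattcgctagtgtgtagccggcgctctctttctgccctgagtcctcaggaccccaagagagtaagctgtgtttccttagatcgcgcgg
Smad6: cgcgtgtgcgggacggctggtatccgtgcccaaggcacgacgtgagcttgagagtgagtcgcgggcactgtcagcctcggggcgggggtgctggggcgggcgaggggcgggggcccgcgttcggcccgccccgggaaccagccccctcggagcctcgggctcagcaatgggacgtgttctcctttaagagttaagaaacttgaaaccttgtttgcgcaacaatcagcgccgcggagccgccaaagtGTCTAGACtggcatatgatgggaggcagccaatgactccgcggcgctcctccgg
Tie1 held 2 matches to AGGAAG and 1 to CGGAAG, Eng held 2 to AGGAAG, and Tek, Kdr and Klf2 held no match to any of the motifs. Of 32851 windows of the same length, 46.5% held AGGAAG or CGGAAG, so a match in 2 of 6 windows is no unusual count. The Smad6 window held 1 GTCTAGAC, as did 70 of all windows (0.213%), and none of the 6 held GGCGCC, found in 11.9% of windows. Smad6 and Klf2 had GC-rich windows, at 66.3% and 69.3% against a median of 52.7%. A match describes these letters only and is not a measured binding site.

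The depth of the libraries was nearly equal, with totals from 21652432 to 21687906 counts, and the common biological coefficient of variation over genes was 0.16. Markers of the lining were present in every library: the 20 genes of an endothelial list that leaves out all 10 genes under study (Erg, Vwf, Sox17 and others) summed to between 414 and 951 CPM (counts scaled to library size) per library. Smooth muscle markers, as the wall's main cell, summed to between 35393 and 53239 CPM. Some libraries stood apart. Control 6 held the most white adipocyte signal, at a summed 6083 CPM for 10 markers against 769 to 3188 in the other controls, and rofecoxib 2 held cardiac muscle signal at 524 CPM against at most 60.3 elsewhere. In whole aorta, fewer endothelial cells and less RNA per cell cannot be told apart.

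Levels per kilobase of exon placed Id1 first, at a mean of 109.8 CPM per kb over the 24 libraries. It was followed by Pecam1 at 49.2, Eng at 33.9, Klf2 at 27.7, Acvrl1 at 26.1, Smad6 at 17.8, Cdh5 at 15.0, Tie1 at 10.8, Tek at 6.16 and Kdr at 2.02 CPM per kb. Id1 stood above every Pecam1 value, with its lowest library at 83.0 CPM per kb and the highest Pecam1 library at 69.1. Each other pair of neighbours in that order overlapped over the libraries. The spread within a group also differed between genes. In controls the coefficient of variation was 9.66% for Acvrl1, 10.6% for Eng and 11.2% for Tie1, against 43.5% for Smad6 and 59.5% for Kdr.

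**Figure D1:**
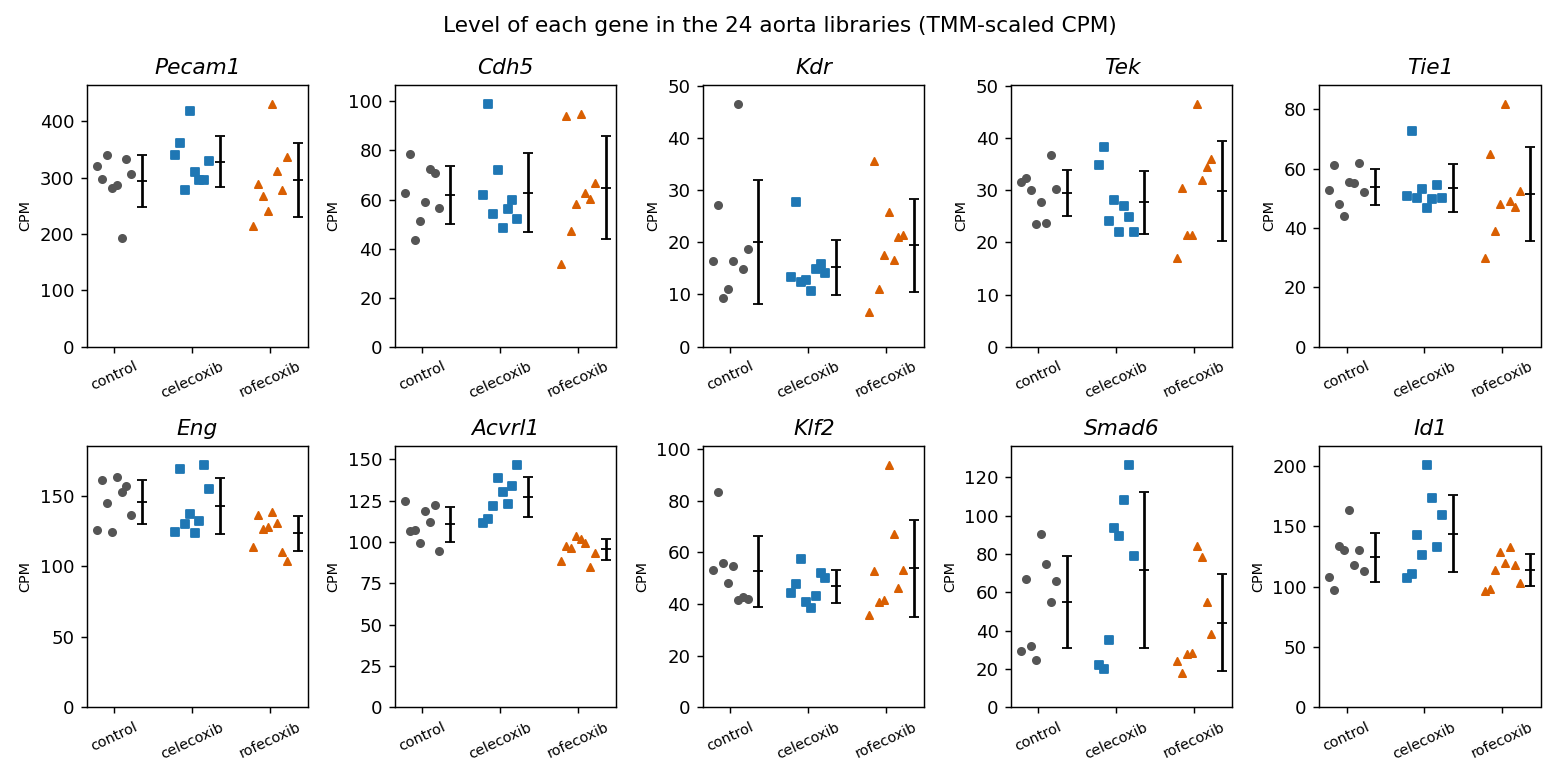
TMM-scaled CPM (vertical axes, starting at 0) of the 10 genes in each library of the control, celecoxib and rofecoxib groups; points are libraries, and bars give the mean and SD of 8. The celecoxib and rofecoxib points of Acvrl1 do not overlap, whereas in the other 9 panels all 3 groups overlap, and Smad6 spreads widely in every group.

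The pan-endothelial genes Pecam1, Cdh5, Kdr, Tek and Tie1 did not pass the test in any comparison. Of the 9 genes other than Acvrl1, edgeR's quasi-likelihood test called 0 in celecoxib against control, where 1.41% of all genes tested were called, and 0 in rofecoxib against control, where 5.3% were called (2.87% lower and 2.43% higher). Between the drugs it called 1 of the 9, Id1, where 22.7% of all genes tested were called. DESeq2 called 0, 1 and 2 of the 9, adding Eng, beside 479 and 1594 of all genes in the comparisons with control. limma-voom called 0 in each comparison, beside 169 of all genes in celecoxib against control. Over the 15 alternative settings, these tools among them, all genes called ran from 18 to 1594 in rofecoxib against control. Between the drugs they ran from 6 to 3634. Without control 6 and rofecoxib 2 edgeR called 0 in each comparison, beside 231, 215 and 3192 of all genes. It also called 0 in each after correction for transcript GC content, described further on, where 2.09%, 1.41% and 9.65% of all genes tested were called. An unadjusted p under 0.05 was reached by 0, 1 and 2 of the 9 genes in these comparisons, and by 2504, 3916 and 5201 of all genes tested. The median log2 fold change of the 9 genes was -0.012, -0.045 and 0.051 in that order, beside -0.0053, -0.00021 and -0.0026 for all genes tested.

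Pecam1 encodes the adhesion molecule CD31 at endothelial contacts (ENSMUSG00000020717, chr11:106515329-106612144, mm9). It ran from 192 CPM (control 6) to 339 CPM in controls, with a median of 301, from 278 to 418 CPM with celecoxib (median 319.5) and from 214 to 430.2 CPM with rofecoxib (median 284). The 3 groups overlapped over most of their range. Celecoxib was 0.16 ± 0.12 (SE, log2) above control, with a 95% confidence interval from -0.09 to 0.41 and an adjusted p of 0.520 by edgeR's quasi-likelihood test. The rofecoxib difference from control was 0.01 ± 0.12 (-0.24 to 0.26, adjusted p = 0.981 by edgeR).

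Cdh5 encodes VE-cadherin, the adhesion protein of endothelial adherens junctions (ENSMUSG00000031871, chr8:106625323-106668604, mm9). Controls ran from 43.6 to 78.7 CPM (median 60.8), celecoxib libraries from 48.3 to 98.8 CPM (median 57.9) and rofecoxib libraries from 33.8 to 94.9 CPM (median 61.5). The rofecoxib group was the widest and took in both other groups but for the highest celecoxib library, celecoxib 2. The group means, 61.8 ± 11.7, 62.8 ± 16.2 and 64.7 ± 21.1 CPM (SD, n = 8), lay close together. The log2 differences from control were 0.02 ± 0.18 with celecoxib and 0.07 ± 0.18 with rofecoxib, with adjusted p of 0.960 and 0.838 (edgeR); the intervals reached from -0.35 to 0.39 and from -0.30 to 0.44.

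Kdr encodes the main signalling receptor for VEGF-A (ENSMUSG00000062960, chr5:76328650-76374685, mm9). It ran from 9.31 to 46.4 CPM in controls (median 16.4), from 10.6 to 27.6 CPM with celecoxib (median 13.7) and from 6.62 to 35.5 CPM with rofecoxib (median 19.2). The highest control was control 6, the library with the most adipocyte signal, and the highest rofecoxib library was rofecoxib 2. The celecoxib mean was -0.40 ± 0.31 (log2) from control, with an interval from -1.05 to 0.25 and an adjusted p of 0.533 (edgeR). Without control 6 that difference was -0.10; the share of adipocyte tissue in it was not tested.

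Tek encodes TIE2, the receptor of the angiopoietins (ENSMUSG00000006386, chr4:94405778-94541869, mm9), and Tie1 its orphan partner receptor (ENSMUSG00000033191, chr4:118143594-118162868, mm9). Tek ran from 23.6 to 36.8 CPM in controls (median 30.2), from 21.9 to 38.4 CPM with celecoxib (median 26.0) and from 17.1 to 46.5 CPM with rofecoxib (median 31.2). Tie1 ran from 44.2 to 62.0 CPM in controls (median 54.1), from 46.6 to 72.6 CPM with celecoxib (median 50.6) and from 29.97 to 81.7 CPM with rofecoxib (median 48.6). For both genes the lowest library of all was rofecoxib 1 and the highest rofecoxib 5, so the rofecoxib group held both ends. The log2 differences from control were between -0.09 and 0.02 for Tek and Tie1 in both comparisons, and none passed edgeR's test (adjusted p from 0.798 to 0.973).

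**Figure D2:**
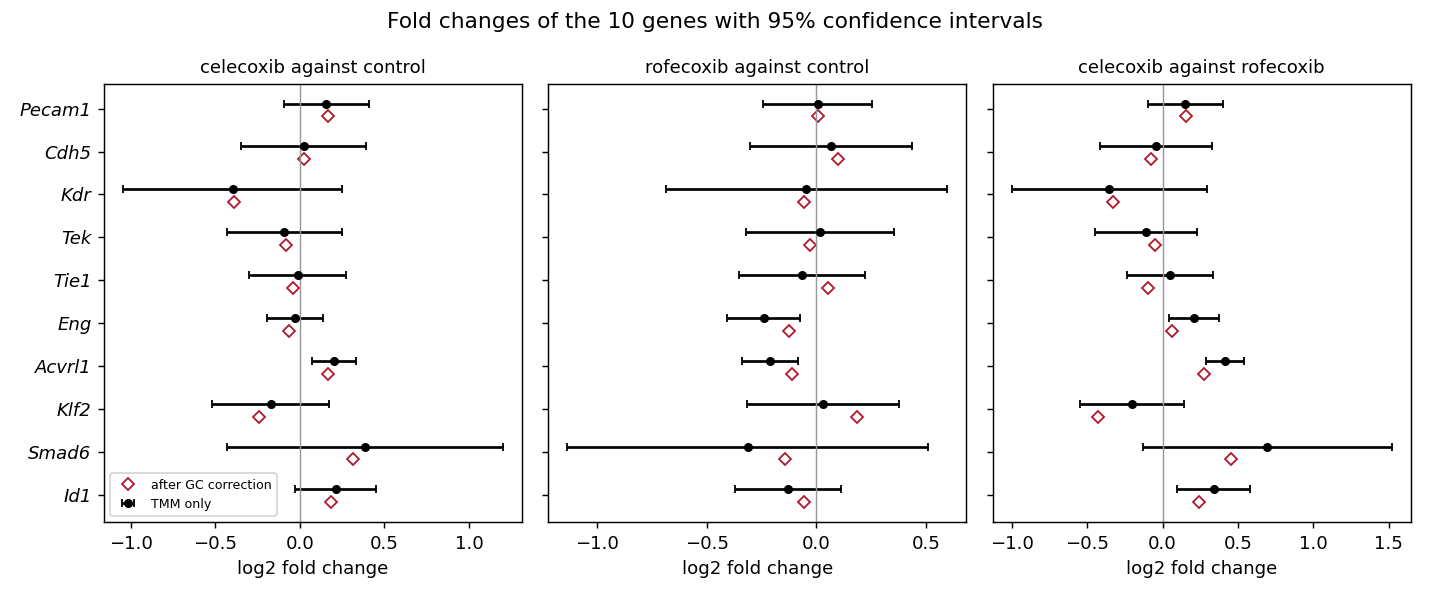
Log2 fold change (horizontal axes) of the 10 genes in the 3 comparisons; filled points with bars are edgeR estimates with 95% confidence intervals, and open diamonds the estimates after correction for transcript GC content. Acvrl1, Eng, Id1 and Smad6 lie to the right of 0 between the drugs, and in that panel each diamond of these genes lies nearer to 0 than its filled point. Acvrl1 is plotted as a description: the libraries that chose it also gave its bars, so these are no test of its differences.

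Eng encodes endoglin, the co-receptor of ALK1 (ENSMUSG00000026814, chr2:32501913-32538391, mm9). Controls ran from 124 to 163 CPM (median 149), celecoxib libraries from 123 to 172 CPM (median 135) and rofecoxib libraries from 104 to 139 CPM (median 127). All 8 rofecoxib libraries lay under the control mean, 3 of them under every control, while celecoxib and control covered nearly the same range. The rofecoxib difference from control was -0.24 ± 0.08 (log2, interval -0.41 to -0.07), with an adjusted p of 0.0679 by edgeR's quasi-likelihood test, so it was not called. Between the drugs the difference was 0.21 ± 0.08 (adjusted p = 0.0599, edgeR), also not called. DESeq2 called both, with adjusted p of 0.0376 and 0.0456. After correction for GC content these values were -0.12 and 0.06, with adjusted p of 0.314 and 0.618 (edgeR). In the table's mm9 coordinates the row of Eng overlaps those of Fpgs by 465 bases and of Ak1 by 615 bases, and without stated strand use reads of these genes could not be told apart there.

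Acvrl1 encodes ALK1 itself (ENSMUSG00000000530, chr15:100958751-100975969, mm9) and had the smallest spread of the 10 genes in each group. Controls ran from 94.5 to 125 CPM (median 109.8), celecoxib libraries from 112 to 146 CPM (median 126) and rofecoxib libraries from 84.6 to 103 CPM (median 96.8). Every celecoxib library lay above every rofecoxib library, a gap without overlap that 1.67% of all genes tested showed between the drugs, and the controls lay between and overlapped both. As a description of the contrast that chose it, celecoxib stood 1.33-fold above rofecoxib, 0.41 on the log2 scale.

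The differences of Acvrl1 from control use the same drug libraries that chose it, so they too are a description. The celecoxib mean, 127 ± 12.0 CPM (SD, n = 8), was 0.20 (log2) above the control mean of 111 ± 10.7 CPM, with 8 of 8 libraries above it. The rofecoxib mean, 95.6 ± 6.43 CPM, was -0.21 from control, with 8 of 8 libraries below the control mean. The rofecoxib difference ran from -0.24 to -0.18 in the 24 fits that each left out 1 library. After GC correction it was -0.11, and the difference between the drugs was 0.28.

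Id1 encodes an inhibitor of helix-loop-helix transcription factors and is a direct target of BMP signalling (ENSMUSG00000042745, chr2:152561785-152563348, mm9). It ran from 97.0 to 164 CPM in controls (median 124), from 107 to 201 CPM with celecoxib (median 138) and from 96.2 to 133 CPM with rofecoxib (median 116). The drug groups overlapped, with 5 of 8 celecoxib libraries above every rofecoxib library. Id1 was higher with celecoxib than with rofecoxib by 0.34 ± 0.12 (log2, interval 0.10 to 0.58), with an adjusted p of 0.0402 by edgeR's quasi-likelihood test. The call was kept in 14 of 24 fits without 1 library; without celecoxib 5, the highest library, the adjusted p was 0.103, and after GC correction the difference was 0.24 with an adjusted p of 0.150 (edgeR). Neither drug differed from control in the test, at 0.21 ± 0.12 with celecoxib and -0.13 ± 0.12 with rofecoxib (adjusted p = 0.357 and 0.499, edgeR).

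Smad6 encodes an inhibitory SMAD that BMP signals induce (ENSMUSG00000036867, chr9:63800751-63870068, mm9). It ran from 24.7 to 90.3 CPM in controls (median 60.4), from 19.9 to 126 CPM with celecoxib (median 84.2) and from 18.1 to 84.4 CPM with rofecoxib (median 33.1). Within a group the highest library stood 3.66-fold, 6.35-fold and 4.66-fold above the lowest, the widest ranges of the 5 genes of the ALK1 axis and of flow. The celecoxib libraries parted into 3 at 19.9, 22.2 and 35.3 CPM (celecoxib 2, 1 and 3) and 5 between 78.9 and 126 CPM. Among controls, 3 libraries (control 1, 3 and 4) lay between 24.7 and 32.1 CPM and 5 between 54.8 and 90.3 CPM. Rofecoxib 1 to 4 lay between 18.1 and 28.1 CPM and rofecoxib 5 to 8 between 38.1 and 84.4 CPM. Low and high libraries thus occurred with and without drug. In each group the low libraries carried low replicate numbers, although control 2 stood at 67.0 CPM. What replicate numbers mark is not stated, and this order was not tested. The differences, 0.38 ± 0.40 with celecoxib, -0.31 ± 0.40 with rofecoxib and 0.70 ± 0.40 between the drugs (log2), were within the spread of the libraries (adjusted p = 0.652, 0.642 and 0.215, edgeR).

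Klf2, the flow-induced transcription factor gene (ENSMUSG00000055148, chr8:74842730-74845757, mm9), ran from 41.5 to 83.3 CPM in controls (median 50.7), from 38.6 to 57.5 CPM with celecoxib (median 46.0) and from 35.6 to 93.7 CPM with rofecoxib (median 49.4). Control 2 and rofecoxib 5 were high, and the groups overlapped. The difference between the drugs was -0.20 ± 0.17 (log2, adjusted p = 0.409, edgeR). With a transcript GC content of 61.6%, higher than in 98.1% of genes tested, Klf2 moved downward under GC correction, as Acvrl1, Eng, Smad6 and Id1 did, and so further below 0, to -0.43 (adjusted p = 0.101, edgeR).

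The 10 genes did not vary as 1 block from library to library. Pearson's r was computed for all 45 pairs on log2 CPM after subtracting each group's mean, so that differences between diets do not enter, and p-values from 100000 permutations of libraries within groups were adjusted over the 45 pairs. Of these, 8 pairs had an adjusted p under 0.05, 6 of them between pan-endothelial genes and the other two joining Tie1 with Klf2 and with Eng. The points share library, scaling and tissue piece, and no cause of a relation was tested.

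Cdh5 and Tie1 were the closest pair, at r = 0.93 (Spearman's rho 0.92, permutation p = 1e-05, adjusted p = 0.000225), and r was 0.89 without the 2 libraries farthest from the median. Within control, celecoxib and rofecoxib libraries alone r was 0.85, 0.94 and 0.98. Cdh5 and Kdr followed at 0.85 (rho 0.75, permutation p = 1e-05, adjusted p = 0.000225), and 1e-05 is the smallest p these permutations can give. The angiopoietin receptor pair Tek and Tie1 stood at 0.80 (rho 0.68, adjusted permutation p = 0.00063), 0.62 without rofecoxib 1 and rofecoxib 5.

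Pecam1 went with Tek, at r = 0.77 (rho 0.74, adjusted permutation p = 0.00063), and not with Kdr, at 0.04 (adjusted p = 0.898). Pecam1 and Kdr differed by group, at -0.78 in controls and 0.65 in rofecoxib libraries; control 6, which was lowest in Pecam1 and highest in Kdr, is one of the control points, and without control 6 and rofecoxib 5 the r over all groups was 0.31. Whether the groups differ in this r was not tested. Tie1 and Klf2 stood at 0.62 (adjusted permutation p = 0.0417), but without rofecoxib 1 and rofecoxib 5 the r was 0.29, so this relation rests on those libraries.

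Acvrl1 stood outside the Cdh5, Tie1 and Kdr group, at r of 0.14, 0.22 and 0.05 with them, and at 0.37 with Eng (adjusted permutation p = 0.203). After GC correction the r of Acvrl1 was 0.045 with Eng, 0.12 with Smad6 and 0.11 with Id1, against 0.37, 0.38 and 0.37 before it. Smad6 and Id1, both BMP targets, stood at 0.51 (rho 0.53, permutation p = 0.0238), which was 0.0877 after adjustment and thus missed the threshold; after GC correction r was 0.43. The r of Cdh5 with Tie1 was 0.94 and that of Pecam1 with Tek 0.77 after GC correction.

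**Figure D3:**
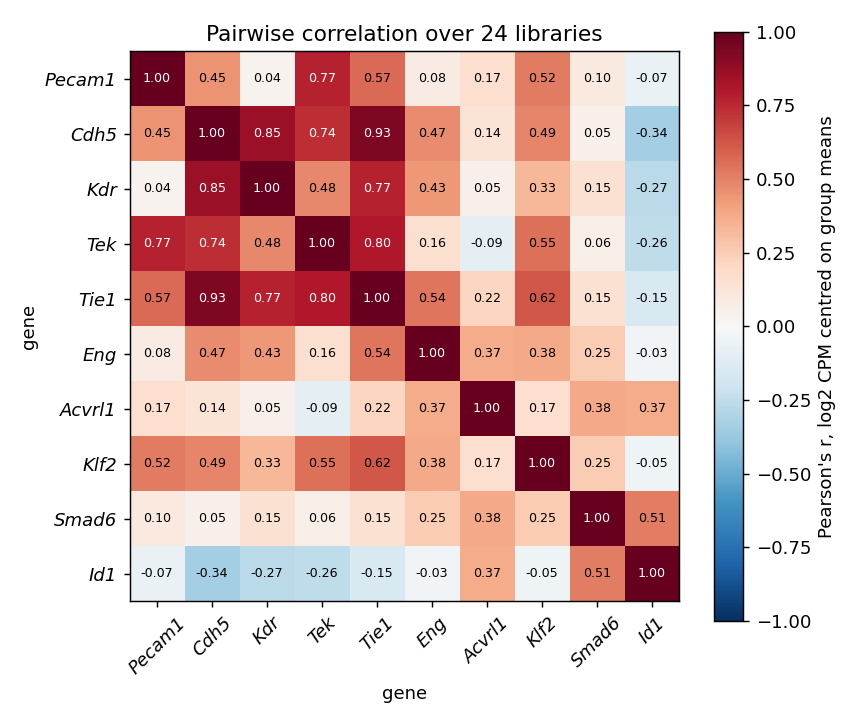
Pearson's r (colour and printed value) of each pair of the 10 genes over 24 libraries, on log2 CPM centred on group means. Cdh5, Kdr, Tek and Tie1 form a block with r from 0.48 to 0.93, while the highest value in the Acvrl1 row is 0.38.

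Each gene was also set against 6 cell type scores, the mean log2 CPM of a marker list without the 10 genes, and against the GC slope defined below, 70 relations in all, of which 14 had an adjusted p under 0.05. Cdh5 followed the endothelial list at r = 0.96 (rho 0.93), Tie1 at 0.93 (rho 0.93), Kdr at 0.86 (rho 0.78) and Tek at 0.71 (rho 0.61), all centred on group means, with adjusted permutation p of 0.000140, 0.000140, 0.000140 and 0.00490. Without the 2 farthest libraries, rofecoxib 1 and rofecoxib 5, these were 0.93, 0.89, 0.84 and 0.49. The pooled values, not centred, were 0.95, 0.91, 0.81 and 0.68. Pecam1 was at 0.41 (adjusted p = 0.201), Eng at 0.46 (0.0796), Klf2 at 0.47 (0.145), Smad6 at 0.23 (0.456), Acvrl1 at 0.21 (0.456) and Id1 at -0.16 (0.569), none past the threshold by permutation.

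Kdr went most closely with genes of capillaries, the smallest vessels, which aorta carries in its outer wall and adjoining fat. Against 8 capillary markers (Gpihbp1, Car4, Btnl9, Meox2, Tcf15, Aqp7, Plvap and Gpr116) Kdr stood at r = 0.96 (rho 0.90, adjusted permutation p = 0.000140), with 0.97, 0.86 and 0.99 inside control, celecoxib and rofecoxib. It stood at 0.94 without control 6 and rofecoxib 1. Cdh5 was at 0.84, Tie1 at 0.74, and Pecam1 at 0.04. Pecam1 differed by group, at -0.70, 0.44 and 0.59 inside control, celecoxib and rofecoxib, and was 0.16 without control 6 and rofecoxib 1. Whether the groups differ in this r was not tested either. Kdr also followed white adipocyte markers at 0.74 (rho 0.76, adjusted permutation p = 0.00190), 0.64 without control 4 and control 6, and Cdh5 at 0.51 (adjusted p = 0.0442); 1 of the 8 capillary markers, Aqp7, is known from fat cells too. Summed capillary markers ran from 91.9 to 255 CPM in controls, 134 to 262 CPM with celecoxib and 83.5 to 267 CPM with rofecoxib, all 8 were detected in every library, and none of them was called in any comparison. Their part in the Kdr values was not tested.

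**Figure D4:**
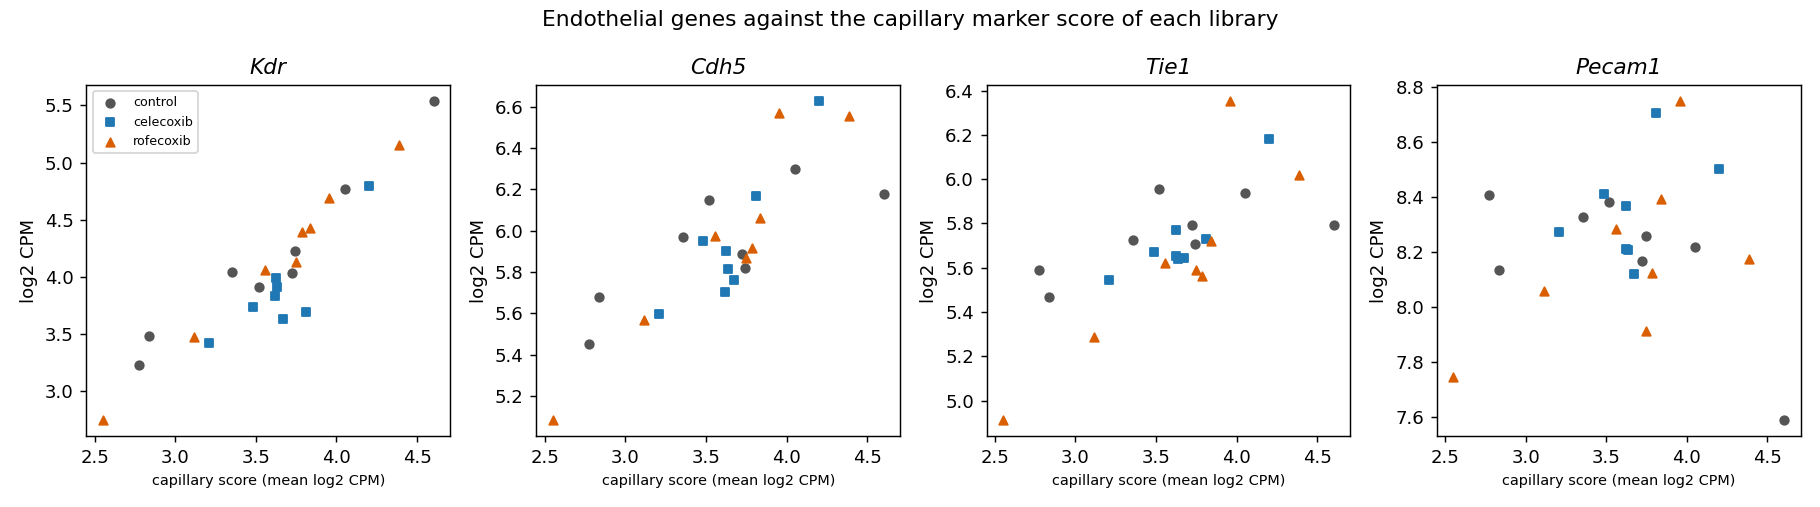
Log2 CPM of Kdr, Cdh5, Tie1 and Pecam1 (vertical) against the mean log2 CPM of 8 capillary markers (horizontal), 1 point per library, marked by group. Kdr, Cdh5 and Tie1 rise with the score, and Pecam1 has no such slope, its lowest point being control 6 at the highest score.

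Arterial markers gave another order. Tie1 stood at r = 0.79 with the artery list (rho 0.71, adjusted permutation p = 0.00262), Cdh5 at 0.72 and Tek at 0.60, which were 0.53, 0.52 and 0.27 without rofecoxib 1 and rofecoxib 5. Pecam1 was at 0.48 (adjusted p = 0.107) and 0.09 without those libraries.

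The genes whose pattern over 24 libraries was most like that of a given gene, were ranked by centred Pearson's r among 12173 genes. Nearest to Kdr were Cd300lg at 0.96, Pde2a at 0.95, and Arap3, Jak3 and Ushbp1 at 0.94, 0.93 and 0.93; none of these 5 is on the capillary list, and Ushbp1 is on the endothelial list. Nearest to Pecam1 were Ece1 at 0.89, Gja5 at 0.88, Bmp6, Bmx and AU021092 at 0.86, 0.86 and 0.85; Gja5 encodes a gap junction protein of arterial endothelium. Nearest to Cdh5 were Unc45b at 0.91, Shank3 at 0.91, and Cd93, Arhgef15 and F11r at 0.91, 0.90 and 0.90. Nearest to Acvrl1 were Arrb2 at 0.78, Prrt1 at 0.76 and Pltp, Podn and Pcgf2 at 0.75, 0.75 and 0.75; none of these 5 is on the endothelial list. Nearest to Smad6 was Cxxc5 at 0.94, then Rcor2, Ubtf, Ahdc1 and Tradd at 0.90, 0.89, 0.88 and 0.88. After GC correction the 5 values for Acvrl1 ran from 0.48 to 0.71 and those for Smad6 from 0.78 to 0.93. Those for Kdr then ran from 0.94 to 0.97, for Cdh5 from 0.89 to 0.92 and for Pecam1 from 0.85 to 0.90. The lists for Kdr, Pecam1 and Smad6 were added after those for Acvrl1 and Cdh5 had been seen.

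The genes of the ALK1 axis moved with a measure of the whole library. The GC slope of a library is the slope of its log2 CPM, relative to the mean of all libraries, on transcript GC fraction over the genes tested, the 10 genes included. It averaged 0.28 ± 0.85 in controls, 0.77 ± 0.91 with celecoxib and -1.06 ± 0.94 with rofecoxib (SD, n = 8), so it differed between the drugs in the direction of Acvrl1, Eng, Smad6 and Id1. Transcript GC was 60.8% for Smad6, 57.4% for Eng, 56.6% for Acvrl1 and 54.7% for Id1. It was 61.6% for Klf2, 57.6% for Tie1, 52.2% for Cdh5, 50.2% for Pecam1, 49.4% for Kdr and 47.1% for Tek.

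Within groups Eng followed the slope at r = 0.61 (rho 0.58, adjusted permutation p = 0.0213) and Acvrl1 at 0.58 (rho 0.57, adjusted permutation p = 0.0317). Smad6 stood at 0.53 (adjusted p = 0.0528) and Id1 at 0.48 (0.0796), both just outside the threshold by permutation. Pooled over groups the values were 0.72, 0.78, 0.57 and 0.61, and without celecoxib 1 and rofecoxib 8 the within-group values were 0.50, 0.56, 0.52 and 0.38. Cdh5, Tie1 and Klf2 stood at -0.02, 0.09 and 0.09, although Tie1 and Klf2 are GC-rich too. The part of this slope in the differences between drugs was not tested, and drug and slope are partly joined in these libraries. With the slope as a term in the fit, the difference between the drugs in Acvrl1 was 0.27 and that in Id1 0.09, while in Smad6 it turned to -0.30. In Eng that difference ran from 0.014 to 0.23 over the 15 alternative settings, the slope term among them.

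**Figure D5:**
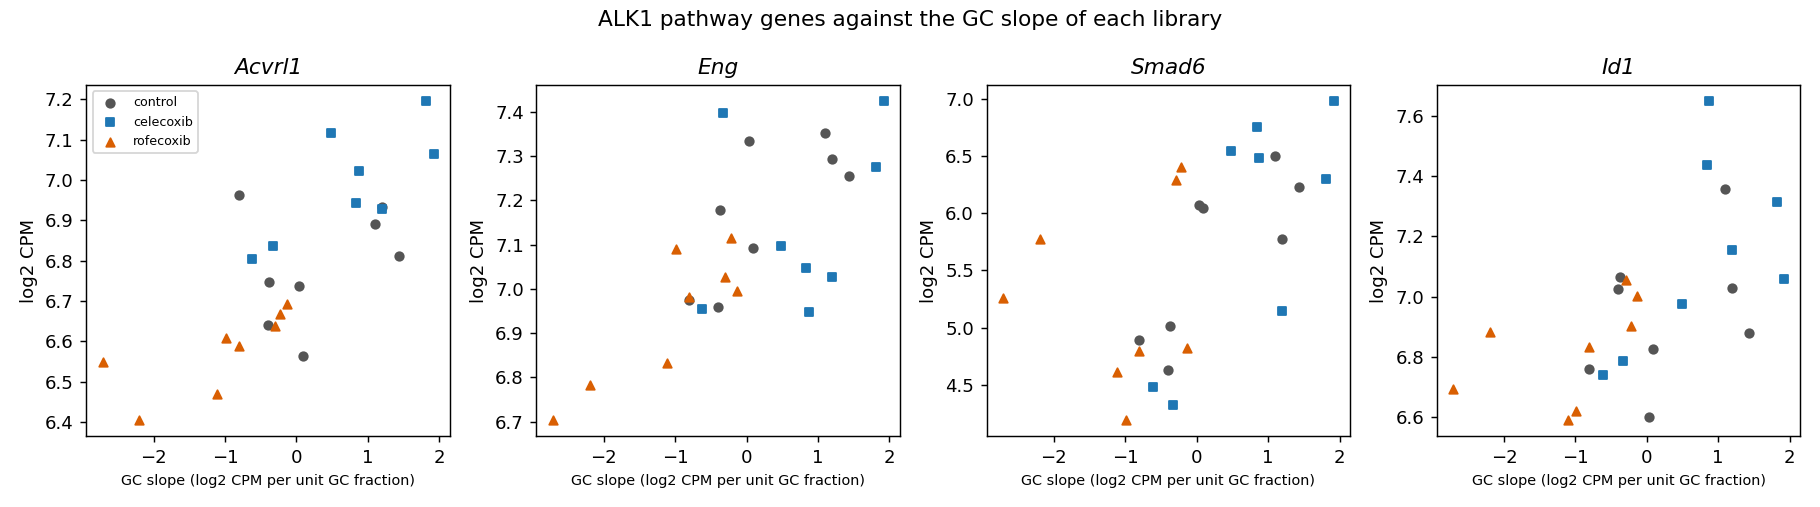
Log2 CPM of Acvrl1, Eng, Smad6 and Id1 (vertical) against the GC slope of the library in log2 CPM per unit GC fraction (horizontal), 1 point per library, marked by group. Rofecoxib libraries lie at slopes from -2.71 to -0.14 and celecoxib libraries from -0.62 to 1.92, and the genes tend to be higher at higher slopes.

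Around ALK1, the 9 tested genes of its ligands, partner and related receptors included 3 lower with celecoxib than with rofecoxib, and none higher, with a list median of -0.21 (log2); of all genes tested, 11.5% were called higher and 11.2% lower in that comparison. Against control edgeR called none of the 9, with an unadjusted p under 0.05 for 2 genes with celecoxib and 3 with rofecoxib. DESeq2 called 1 and 0, beside 479 and 1594 of all genes. Acvr2a, a type II receptor of activins and BMPs, averaged 21.6 ± 2.99 CPM with celecoxib and 27.8 ± 3.79 with rofecoxib (-0.37 ± 0.09, adjusted p = 0.00788, edgeR). Tgfbr3, the co-receptor betaglycan, was at 109 ± 7.74 and 132 ± 7.96 CPM (-0.27 ± 0.06, adjusted p = 0.00352), and Bmpr1a, another type I receptor, at 245 ± 28.9 and 317 ± 35.8 CPM (-0.37 ± 0.09, adjusted p = 0.00556, both edgeR). These 3 transcripts are poor in GC, at 39.9%, 48.6% and 41.3%, and all 3 were still called after GC correction, at -0.21, -0.23 and -0.23. Bmpr2, the main type II partner of ALK1, was at 8.63 ± 1.41, 8.99 ± 3.11 and 7.75 ± 0.70 CPM with celecoxib, rofecoxib and control, and was not called. The ligand gene Gdf2 (BMP9), which is made mainly in liver, reached at most 7 counts in a library and was not tested, and Bmp10 was not analysed here.

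Among 15 SMADs and their inhibitors, 2 were higher and 3 lower with celecoxib than with rofecoxib, beside the 11.5% and 11.2% of all genes tested, and the list median was 0.10. Against control edgeR called none, with an unadjusted p under 0.05 for 4 genes with celecoxib and 6 with rofecoxib. After GC correction edgeR called 1, higher with celecoxib than in control, beside 1.34% of all genes tested. DESeq2 called 1 and 2, beside 479 and 1594 of all genes. Without control 6 and rofecoxib 2, edgeR called 1, 0 and 4 of the 15 in celecoxib against control, rofecoxib against control and between the drugs, beside 231, 215 and 3192 of all genes. Smad7, the other inhibitory SMAD, averaged 85.6 ± 25.1 CPM with celecoxib and 57.1 ± 12.5 with rofecoxib (0.58 ± 0.20, adjusted p = 0.0357, edgeR; 0.45 and 0.126 after GC correction). Bambi, a decoy receptor that blocks BMP signals, was lower with celecoxib, at 32.6 ± 4.01 against 52.0 ± 6.75 CPM, with no overlap between the groups (-0.67 ± 0.15, adjusted p = 0.00418; -0.56 and 0.0165 after GC correction, edgeR). Smad5, which carries the signal, was at 70.2 ± 6.95 against 79.8 ± 8.93 CPM (-0.19 ± 0.06, adjusted p = 0.0366; -0.08 and 0.242 after GC correction, edgeR). Fkbp1a was the other higher gene and Ppm1a the other lower one, and Smad1 and Smad4 were not called.

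Of 15 BMP and ALK1 target genes, Id3, Hey1 and Atoh8 were higher and Hey2 was lower with celecoxib than with rofecoxib, 4 of 15 beside 22.7% of all genes tested, with a list median of 0.26. Id3, a close relative of Id1, averaged 276 ± 65.5 and 193 ± 36.1 CPM (0.52 ± 0.15, adjusted p = 0.0167; 0.40 and 0.0598 after GC correction, edgeR). Atoh8 was at 106 ± 39.5 and 57.4 ± 14.0 CPM (0.89 ± 0.25, adjusted p = 0.0171; 0.63 and 0.0719 after GC correction, edgeR). Hey1, a Notch and BMP target, was at 11.8 ± 1.90 and 8.74 ± 1.54 CPM (0.43 ± 0.12, adjusted p = 0.0142; 0.39 and 0.0301 after GC correction, edgeR). Hey2, its relative, went the other way, at 86.2 ± 7.09 with celecoxib, 106 ± 3.27 with rofecoxib and 90.6 ± 10.8 CPM in controls, and was also higher with rofecoxib than in control (0.23 ± 0.06, adjusted p = 0.0370, edgeR; 0.17 and 0.110 after GC correction). Hey2 was the 1 target called with rofecoxib against control, where 2.43% of all genes tested were called higher. Without control 6 and rofecoxib 2, 0 target genes were called with rofecoxib against control. Cxcl12, a chemokine gene, was the 1 target of 15 called with celecoxib against control, where 0.498% of all genes tested were called lower. Cxcl12 was at 161 ± 19.95 against 211 ± 23.9 CPM (-0.39 ± 0.09, adjusted p = 0.0316, edgeR). It was 176 ± 26.0 CPM with rofecoxib, which was not called (adjusted p = 0.0685, edgeR). Fibroblasts and other wall cells also express several of these targets, and the cells behind a change were not measured. Summed over 10 fibroblast markers, the level ran from 7097 to 10560 CPM in controls (median 9872), from 7034 to 10639 CPM with celecoxib (median 9037) and from 6858 to 7979 CPM with rofecoxib (median 7653). Of these 10, Col1a1 and Pi16 were higher with celecoxib than with rofecoxib, beside 11.5% of all genes tested. Col1a1 was lower with rofecoxib than in control, beside 2.87% of all genes tested. In rofecoxib against control 5 of the 10 had an unadjusted p under 0.05, and the part of fibroblasts in the target values was not tested.

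Of 15 genes of the flow pathway around Klf2, 3 were higher and 4 lower with celecoxib than with rofecoxib, beside 11.5% and 11.2% of all genes tested, with a list median of 0.093. With rofecoxib against control 2 were called, both higher, beside 2.43% of all genes. Nos3, the endothelial nitric oxide synthase gene, averaged 49.8 ± 6.20 CPM with celecoxib, 36.2 ± 12.5 with rofecoxib and 39.0 ± 7.54 in controls. It passed between the drugs (0.46 ± 0.16, adjusted p = 0.0399, edgeR) and not after GC correction (0.29, adjusted p = 0.206). Mapk7, the kinase ERK5 upstream of Klf2, was higher with celecoxib in 8 of 8 libraries, at 44.9 ± 3.41 against 32.4 ± 3.68 CPM (0.47 ± 0.08, adjusted p = 0.00114, edgeR), and was called after GC correction too, at 0.32. Edn1, the endothelin gene, was higher with rofecoxib than in control, at 17.0 ± 2.32 against 12.5 ± 2.31 CPM (0.44 ± 0.12, adjusted p = 0.0393, edgeR; 0.38 and 0.0917 after GC correction). Mef2a, a transcription factor gene downstream of that kinase, was also higher with rofecoxib than in control, at 283 ± 22.5 against 225 ± 28.1 CPM (0.33 ± 0.08, adjusted p = 0.0249, edgeR). Mef2a was still called after GC correction, at 0.23 (adjusted p = 0.0426, edgeR). Without control 6 and rofecoxib 2, 0 genes of this list were called with rofecoxib against control, so neither call was kept. Klf4, the sister gene of Klf2, was at 55.9 ± 7.50, 61.0 ± 11.4 and 58.2 ± 12.3 CPM with celecoxib, rofecoxib and control and was not called.

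Growth factor receptor and junction lists had 6 genes called between the drugs, where 22.7% of all genes tested were called. Of 9 VEGF ligands and receptors, 1, the ligand gene Pgf, was higher with celecoxib than with rofecoxib (14.3 ± 3.59 against 9.75 ± 2.39 CPM, adjusted p = 0.0155, edgeR), and Flt1 and Vegfa were not called. In the angiopoietin list of 7, Angpt2, the ligand that opposes TIE2 signalling, was lower (62.0 ± 6.45 against 76.7 ± 9.05 CPM, adjusted p = 0.0156, edgeR) and Svep1 higher. Of 12 junction genes, Jup was higher and Ctnnd1 and Cd99l2 lower, and the endothelial claudin gene Cldn5 was not called. After GC correction Cd99l2 was still called (adjusted p = 0.0339, edgeR). Pgf, Angpt2, Svep1, Ctnnd1 and Jup were not (adjusted p = 0.0813, 0.0676, 0.0988, 0.0758 and 0.415, edgeR), and Jup went from 0.25 to 0.071 (log2). None of these 3 lists had a gene called against control by edgeR before GC correction. An unadjusted edgeR p under 0.05 held for 2, 1 and 1 of their genes with celecoxib and 3, 2 and 2 with rofecoxib. After GC correction edgeR called 1 VEGF gene lower with rofecoxib than in control, beside 0.685% of all genes tested. DESeq2 called 1 angiopoietin and 1 junction gene with rofecoxib against control, beside 1594 of all genes. Of the 20 genes of the endothelial list, 0 were called in any comparison by edgeR's test, DESeq2 or limma-voom, with an unadjusted edgeR p under 0.05 for 0, 0 and 1 of them and medians of 0.07, 0.08 and -0.0029 (log2); Vwf was at 167 ± 32.9, 166 ± 47.9 and 160.1 ± 39.7 CPM with celecoxib, rofecoxib and control. The artery list did hold called genes: of 13, Hey1 and Ltbp4 were higher and Efnb2 and Nebl lower with celecoxib than with rofecoxib, beside 22.7% of all genes tested. Ltbp4 averaged 1507 CPM, against 137 CPM for Cytl1, the next in level on that list, and the cells behind these calls were not measured. DESeq2 called 5 of the 13 and voom 4, in a comparison where the 15 alternative settings called from 6 to 3634 of all genes. After GC correction edgeR called 1 higher and 1 lower, beside 5.25% and 4.4% of all genes tested. None was called against control by these tools (unadjusted edgeR p under 0.05 for 3 and 1).

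Markers of other cells gave the setting of these values. Of 10 smooth muscle markers, Acta2, Tagln and Actg2 were called higher with each drug than in control. Of all genes tested, 0.913% were called higher with celecoxib and 2.43% with rofecoxib. Between the drugs, where 22.7% of all genes tested were called, none of the 10 was (5 had an unadjusted p under 0.05). Without control 6 and rofecoxib 2, 1 smooth muscle marker was called with each drug. Of 10 macrophage markers, C1qc and Cd14 were lower with rofecoxib than in control, beside 2.87% of all genes tested, and 0 were called without those libraries. Of 7 pericyte markers, Cspg4 and Ndufa4l2 were higher and Abcc9 lower with celecoxib than with rofecoxib, beside 22.7% of all genes tested. Ndufa4l2 was also lower with rofecoxib than in control, beside 2.87% of all genes tested. The pericyte sums overlapped, from 3600 to 5975 CPM in controls, 4356 to 5546 CPM with celecoxib and 4260 to 6348 CPM with rofecoxib. Summed markers of lymphatic endothelium stayed between 32.7 and 101 CPM, those of mesothelium at 8.34 CPM or less, and the lymphatic chemokine gene Ccl21a was at 0 in 19 of 24 libraries. No tested marker of capillaries, lymphatics, white adipocytes or platelets was called by edgeR in any comparison. For capillaries and lymphatics 0 had an unadjusted p under 0.05. Of 6 platelet markers 5 had one with each drug against control, and DESeq2 called 3 and 2, beside 479 and 1594 of all genes. The part of these cells in the values above was not tested.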

How the data were processed

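PolyA RNA of mouse thoracic aorta was sequenced as 24 libraries, 8 per group. The authors deposited whole-number counts per gene in 1 table of 25941 genes with mm9 coordinates. Per the submitters' processing notes, the tools were CASAVA 1.8.2 and STAR 2.5.1b and the build was mm9; no source used here states the counting tool, annotation or strand use. Library totals in the deposited counts were nearly equal (21652432 to 21687906), so some step not stated in these sources had evened them out; if counts were scaled, the spread edgeR assumes would not hold exactly. No 2 libraries agreed within sampling noise (lowest chi-square per degree of freedom 7.55).

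Genes were filtered with filterByExpr (14451 kept), scaled by TMM and fitted with edgeR 4.0.16 (R 4.3.3), as 1 robust quasi-likelihood model over all groups with 21 residual degrees of freedom. Benjamini-Hochberg adjustment covered all genes tested, and "called" means an adjusted p below 0.05. CPM are TMM-scaled; SE is the log2 fold change over the root of F. Log2 CPM used a prior count of 2. Transcript GC and exon length came from GENCODE M21 (GRCm38), matched by Ensembl identifier (GC for 97.4% of genes tested); GC correction subtracted a lowess curve (span 0.3) per library. The script was tested on simulated data.

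The 10 genes, the lists and the rule for named genes were chosen with earlier results of these data known. The rule named all 10 genes, fixed members of pathway lists, up to 4 called genes per list and comparison with the smallest p, and 5 genes of most similar pattern. Genes near in pattern needed a mean log2 CPM of at least 1. Alternatives included DESeq2 1.42.0, limma-voom (limma 3.58.1), other scaling, filters, covariates, a replicate block and leaving out each library. The artery score and GC slope, as fit terms and in the relations across libraries, and the pairs of genes were added after seeing the data.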

Additional observations from a re-analysis of the deposited data

Results flagged for a closer look

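Among the 30 groups of 8 libraries (10 genes in 3 diets), 5 held a library set apart from its group, by a gap to its nearest neighbour above Dixon's critical value for 8 samples. Chance flags about 1 in 20 groups. Of the 5, 3 concern celecoxib 2, in genes that also varied together over all libraries: Cdh5 was at 98.8 CPM there against 71.9 in the next library, Kdr at 27.6 against 15.8, and Tie1 at 72.6 against 54.4. Pecam1 was at 192 CPM in control 6, below the next control at 281, in the library with the highest adipocyte marker sum and the highest Kdr. Klf2 was at 83.3 CPM in control 2 against 55.9 in the next control.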

How the results depend on the processing

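For the 27 log2 differences of the 9 genes other than Acvrl1 (3 comparisons), 15 alternatives gave 405 values, of which 361 kept direction and side of the threshold, 33 reversed, 8 lost the call and 3 gained it; of 648 values without 1 library, 38 reversed, 10 lost and 4 gained a call. The causes were not tested. Genes called in celecoxib against control numbered 204, and 479 with DESeq2, 86 with every gene kept, 88 with only those groups, 313 with the adipocyte score, 353 with the GC slope as a term and 42 to 312 without 1 library (42 without celecoxib 5). In rofecoxib against control 766 became 1594, 294 and 461 under the first 3 of these settings, 204 with GC correction, 215 without control 6 and rofecoxib 2, 18 with the GC slope and 170 to 1121 without 1 library (170 without control 7). Between the drugs 3275 became 1395 with GC correction, 6 with the GC slope and 2147 to 3739 without 1 library. The counts that follow are of the 9 genes other than Acvrl1. With celecoxib against control 0 of the 9 were called in every setting, also without 1 library. With rofecoxib against control 0 became 1, Eng, with DESeq2 (adjusted p 0.0376) and with the endothelial score (adjusted p 0.0437, edgeR). Without 1 library it was 0 or 1, and every other setting called 0 there. Between the drugs edgeR called 1, Id1. This became 0 with library totals, voom, every gene kept, GC correction, the artery score, the GC slope and without control 6 and rofecoxib 2. It became 2 with DESeq2 (Eng added, adjusted p 0.0456) and 0 to 2 without 1 library.

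Replicate numbers did not pair the libraries. Over same-numbered libraries 5, 3 and 2 of 8 correlations were above 0.1 (control with celecoxib, control with rofecoxib, celecoxib with rofecoxib), and 3, 1 and 1 of 8 libraries correlated best with their own number. With the replicate block 0 of the 9 genes other than Acvrl1 were called against control with either drug and 1, Id1, between the drugs. With the block and GC correction 354, 168 and 1503 genes were called, 0 of them among the 9 in each comparison. In that setting Tek and Tie1 in rofecoxib against control were -0.049 and 0.029, and Tie1 between the drugs was -0.079.

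Reversed values, none of them called, were as follows. In celecoxib against control, Cdh5 was -0.095 with the endothelial and -0.079 with the artery score, and Tie1 0.013 with the adipocyte score; without 1 library Cdh5 ran from -0.099 to 0.080 and Tie1 from -0.088 to 0.018. In rofecoxib against control, Pecam1 was -0.0047 with voom, -0.031 with the endothelial score, -0.010 with the artery score, -0.056 without control 6 and rofecoxib 2 and -0.082 with the GC slope. Tek was -0.032 with voom, -0.030 with GC correction, -0.061 with the endothelial score, -0.0053 with the artery score, -0.022 without those libraries and -0.15 with the GC slope. Klf2 was -0.030, -0.019 and -0.0050 with the endothelial score, the artery score and without those libraries. Cdh5 was -0.027 with the endothelial score and Tie1 0.056 with GC correction. Kdr was 0.25 with the adipocyte score, 0.077 without those libraries and 0.070 with the GC slope, with which Smad6 was 0.42 and Id1 0.047. Without 1 library these ran from -0.086 to 0.050 (Pecam1), -0.028 to 0.15 (Cdh5), -0.22 to 0.26 (Kdr), -0.095 to 0.092 (Tek), -0.18 to 0.0074 (Tie1) and -0.13 to 0.16 (Klf2). Between the drugs, Tie1 was -0.099 with GC correction, -0.0083 with the artery score and -0.0041 with the GC slope, Cdh5 was 0.049 without control 6 and rofecoxib 2, and Tek was 0.097 and Smad6 -0.30 with the GC slope. Without 1 library they ran from -0.028 to 0.17 (Tie1), -0.17 to 0.051 (Cdh5) and -0.20 to 0.0033 (Tek). Depth did not limit any of the 10 genes: the lowest count was 138, for Kdr.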
